A study of Mus musculus with 4 samples.

Results

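Mast cells store proteases and histamine in their granules, and 9 genes that mark them were followed across the 4 arrays of mouse aorta: the tryptases Tpsab1 and Tpsb2, the chymases Cma1 and Mcpt4, the carboxypeptidase Cpa3, the receptor genes Kit, Fcer1a and Ms4a2, and Hdc, which makes histamine. Members were taken as all probe sets annotated to 1 gene whose symbol is in this list, which gave 13 of the 45101 probe sets on each array and at least 1 for each of the 9 genes. The genes were chosen from earlier results on the same arrays, by the strain and diet differences in intensity of their probe sets, so the values given here are descriptions and carry no test.

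RNA came from aorta in 4 groups with 1 array each: Ath29 congenic mice on Western diet, C57BL/6 apoE-/- mice (B6) on Western diet, Ath29 mice on chow, and B6 mice on chow. Ath29 is a locus for atherosclerosis on mouse chromosome 9, and a congenic mouse carries a donor segment on the background of another strain. The labels call Ath29 mice resistant and B6 mice atherosclerotic, give C57BL/6 as the strain of both, write apoE-/- (no apolipoprotein E) for B6 only, and name no donor strain. Mice were weaned onto chow at 3 weeks, and the Western diet, rich in fat and cholesterol, ran for 2 weeks from 4 weeks of age. One protocol field names liver as the tissue, while the source label and design text name aorta. Acta2, the smooth muscle actin of arteries, read 10495 to 11042, and Alb, which liver makes in large amounts, read 33.0 to 64.6. Whether an array holds 1 animal or a pool is not stated in the labels, and with 1 array per group no difference has a replicate error.

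Mast cells are resident immune cells of connective tissue, and in arteries they lie mainly in the outer coat and the surrounding fat. They mature in the tissue under the growth factor Kitl and its receptor Kit, and they degranulate when antigen crosslinks IgE on the Fc epsilon receptor, whose alpha and beta chains are encoded by Fcer1a and Ms4a2. Their granules hold tryptases, chymases and Cpa3 bound to heparin, together with histamine. Mouse strains differ in these proteases, and C57BL/6 mice are known to lack the protein of Tpsab1 because of a splice site change in the gene. C57BL/6 is the strain label of both groups here, and whether they differ at this site was not tested.

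Signals were read against an intensity of 27.4, the median of the probe set means, which served as the filter on low values. The array medians lay between 27.95 and 28.8. Eif2s3y and Uty, both Y-linked, reached at most 24.0 and 21.2. The sex of the mice is not given here, and these genes did not set the filter. Readings under 27.4 are treated as indistinguishable from background, which is a choice of level, since no detection calls were used. Of the 9 mast cell genes 5 passed the filter (Tpsab1, Tpsb2, Cma1, Cpa3 and Hdc) and 4 did not (Mcpt4, Kit, Fcer1a and Ms4a2). Cma1, with a mean intensity of 32.1, lay just above it and Kit, with 20.4, just below. Only 3 of the 13 probe sets, 1 each for Cpa3, Tpsb2 and Hdc, lay above 27.4 on every array. The mast cell label thus rests on granule genes in these data, while the defining receptor genes gave no reading above this level. In whole aorta, fewer mast cells and less RNA per cell cannot be told apart.

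**Figure D1:**
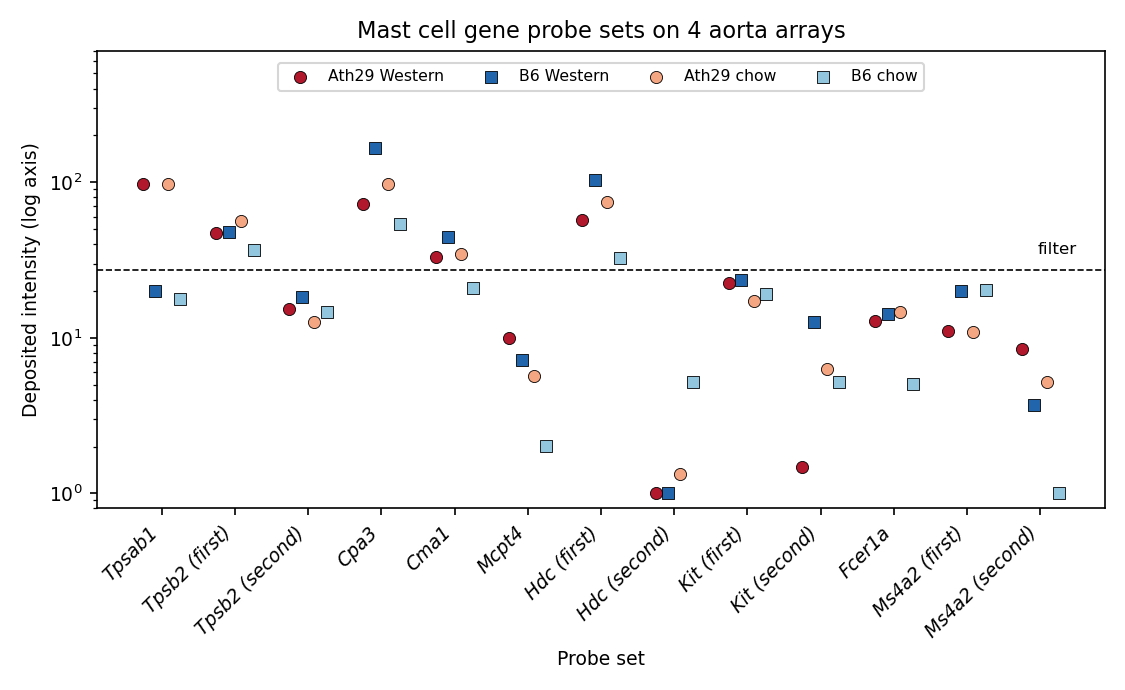
Deposited intensity (log axis) of the 13 member probe sets, 1 point per array, with circles for Ath29 and squares for B6 and the dashed line at the filter of 27.4; where a gene has a pair of probe sets, the one with the higher mean is called first. Tpsab1 separates circles from squares, Cpa3, Cma1 and the first Hdc probe set are highest in B6 Western and lowest in B6 chow, and the 8 probe sets that did not pass the filter reach at most 23.4.

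Tpsab1 encodes a tryptase, a trypsin-like protease of the granule. Its probe set read 98.03 in Ath29 Western against 19.9 in B6 Western, and 97.8 in Ath29 chow against 17.8 in B6 chow. Both Ath29 arrays were thus high and close to each other, and both B6 arrays lay in the range of background. The log2 difference between Ath29 and B6 mice, computed after the arrays were set to a common median, was 2.31 on Western diet and 2.42 on chow, 4.95-fold and 5.34-fold. With readings raised to at least the median of all values (28.5), which replaces both B6 readings, Ath29 mice were at least 3.43-fold higher on Western diet and 3.40-fold on chow.

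Within the Ath29 mice the diet difference of Tpsab1 was 0.01. In B6 mice both readings were in the range of background, so no diet difference can be given there. Of the 11718 genes above the filter, with the brightest probe set standing for each gene, 9 (0.0768%) were at least 2-fold higher in Ath29 mice on both diets, and 1 of them was a mast cell gene, Tpsab1. Ranked by the smaller of both strain differences it stood first, with 2.31 against 1.35 for Tmod3 and Plscr2. The pair of Ath29 arrays lay above the pair of B6 arrays without overlap in 12.6% of genes, and Tpsab1 was the 1 of the 5 measured members among them. The reverse, both Ath29 arrays below both B6 arrays, was seen in 20.4% of genes and 0 members. These ranks describe a gene that was chosen for this pattern. In the plot of strain differences, it stands alone at the upper right while the other 4 members lie to the right of and below the centre.

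Tpsb2, the neighbouring tryptase gene, did not share the Tpsab1 pattern. Its first probe set read 46.95 in Ath29 Western and 47.7 in B6 Western, and 55.96 in Ath29 chow and 36.6 in B6 chow. All 4 readings were above 27.4, and those on Western diet were close to equal. The strain difference was -0.02 on Western diet and 0.57 on chow, and the diet difference was -0.24 in Ath29 mice and 0.34 in B6 mice. The second Tpsb2 probe set read 15.2, 18.25, 12.7 and 14.7 in Ath29 Western, B6 Western, Ath29 chow and B6 chow, all below the filter. The pair of Tpsb2 probe sets thus gave different answers on whether the gene was detected.

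The tryptase genes lie side by side on chromosome 17 in the RefSeq gene order of assembly GRCm38.p6, with Tpsg1 next to them. Tpsg1, a membrane-anchored tryptase, read at most 6.47 on any array. Among the 4 measured genes on either side of Tpsab1, which include Tpsb2, strain differences ran from -0.93 to 0.65 on chow and from -1.06 to 0.44 on Western diet. None of the 8 was at least 2-fold higher in Ath29 mice on either diet. Over all genes the shares were 2.16% on chow and 0.845% on Western diet, so this is not read as a result. No member lies on chromosome 9, where the Ath29 locus is. The other members lie on chromosomes 1 (Fcer1a), 2 (Hdc), 3 (Cpa3), 5 (Kit), 14 (Cma1 and Mcpt4) and 19 (Ms4a2).

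**Figure D2:**
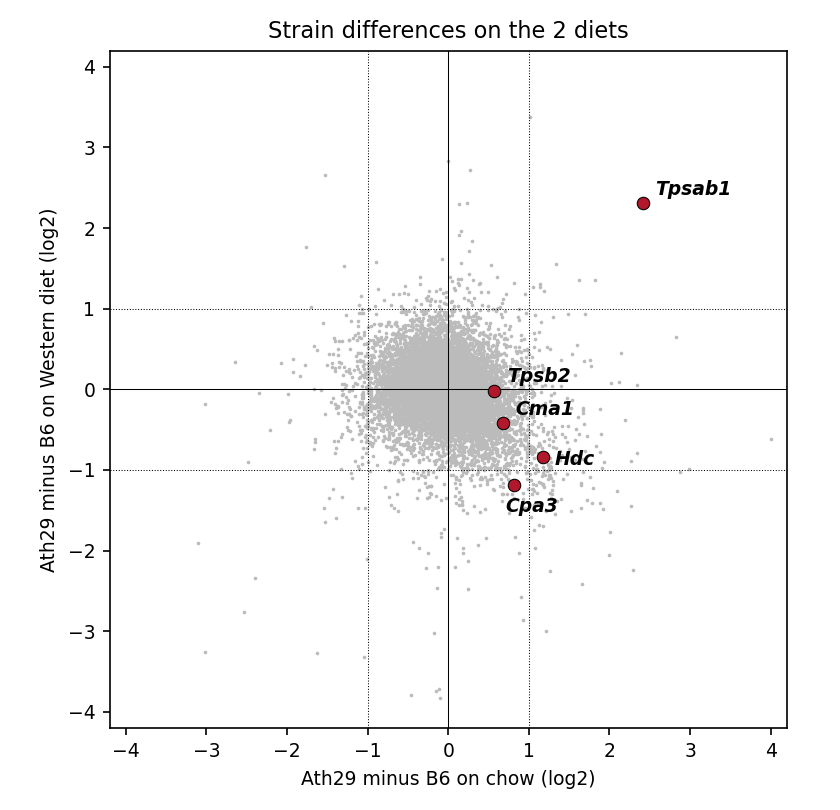
Log2 difference between Ath29 and B6 mice on chow (x axis) and on Western diet (y axis) for 11709 of the 11718 genes in grey, with 9 beyond the axes, and the 5 mast cell genes above the filter in red; dotted lines mark 2-fold. Tpsab1 lies at 2.42 and 2.31, while Hdc (1.17 and -0.83), Cpa3 (0.81 and -1.18), Cma1 (0.68 and -0.42) and Tpsb2 (0.57 and -0.02) lie to the right of 0 on chow and at or below 0 on Western diet.

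Cpa3 encodes mast cell carboxypeptidase, which trims peptides after chymase has cut them. It read 72.2 in Ath29 Western against 164.9 in B6 Western, and 98 in Ath29 chow against 54.1 in B6 chow. Its highest reading was in B6 Western and its lowest in B6 chow, with both Ath29 arrays in between, so the strains overlapped. Ath29 mice were lower by 2.27-fold on Western diet (log2 difference -1.18) and higher by 1.76-fold on chow (0.81). Western diet was 2.96-fold above chow in B6 mice (1.57) and 1.35-fold below it in Ath29 mice (-0.43).

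Cma1 encodes a chymase of connective tissue mast cells, a chymotrypsin-like protease. It read 33.3 in Ath29 Western and 44.7 in B6 Western, and 34.4 in Ath29 chow and 20.85 in B6 chow. The order of the arrays was that of Cpa3, with Ath29 Western and Ath29 chow close to each other and B6 chow in the range of background. The strain difference was -0.42 on Western diet and 0.68 on chow, and the diet difference was -0.04 in Ath29 mice and 1.06 in B6 mice. With the B6 chow reading raised to the median of all values (28.5), the strain difference on chow was at least 0.26 and the B6 diet difference at least 0.64. Mcpt4, the other chymase, read 9.95, 7.24, 5.69 and 2.01 in Ath29 Western, B6 Western, Ath29 chow and B6 chow.

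Ctsg, a granule protease shared by mast cells and neutrophils and the next measured gene after Cma1 on chromosome 14, showed small differences. It read 40.2 in Ath29 Western and 43.7 in B6 Western, and 43.2 in Ath29 chow and 34.4 in B6 chow. Its B6 diet difference was 0.30. Over the 8 measured neighbours, strain differences on chow ran from -0.15 to 0.41 around Cma1 and from -0.47 to 0.13 around Cpa3. On Western diet they ran from -0.32 to 0.35 around Cma1 and from -0.31 to 0.86 around Cpa3. Whether these neighbours share a pattern was not tested.

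Hdc encodes histidine decarboxylase, the enzyme that forms histamine. Its first probe set read 57.6 in Ath29 Western against 103.2 in B6 Western, and 75.04 in Ath29 chow against 32.4 in B6 chow. These readings followed the same order of arrays as Cpa3 and Cma1. The strain difference was -0.83 on Western diet and 1.17 on chow, and the diet difference was -0.37 in Ath29 mice and 1.63 in B6 mice. The second Hdc probe set read 1, 1, 1.33 and 5.21 in Ath29 Western, B6 Western, Ath29 chow and B6 chow, all far below the filter.

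The pair of Hdc probe sets therefore gave different answers on whether the gene was detected. The first resembled Slc27a2, a fatty acid transport and activation enzyme of peroxisomes, which is the gene next to Hdc on chromosome 2. Slc27a2 read 1858 in Ath29 Western against 3290 in B6 Western, and 2427 in Ath29 chow against 1077 in B6 chow. The ratio of the Slc27a2 to the Hdc reading, used only to compare arrays with each other, was 32.3, 31.9, 32.3 and 33.3 in Ath29 Western, B6 Western, Ath29 chow and B6 chow, so it was nearly constant. Among 11713 non-member genes its centred log2 values were the closest to those of Hdc, with a root mean square difference of 0.02 over the 4 arrays. Whether the first Hdc probe set takes up transcript of the neighbouring gene was not tested, since probe sequences were not used here. Both Hdc probe sets carry the _s_at suffix, which the manufacturer gives to sets that can bind more than 1 transcript.

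**Figure D3:**
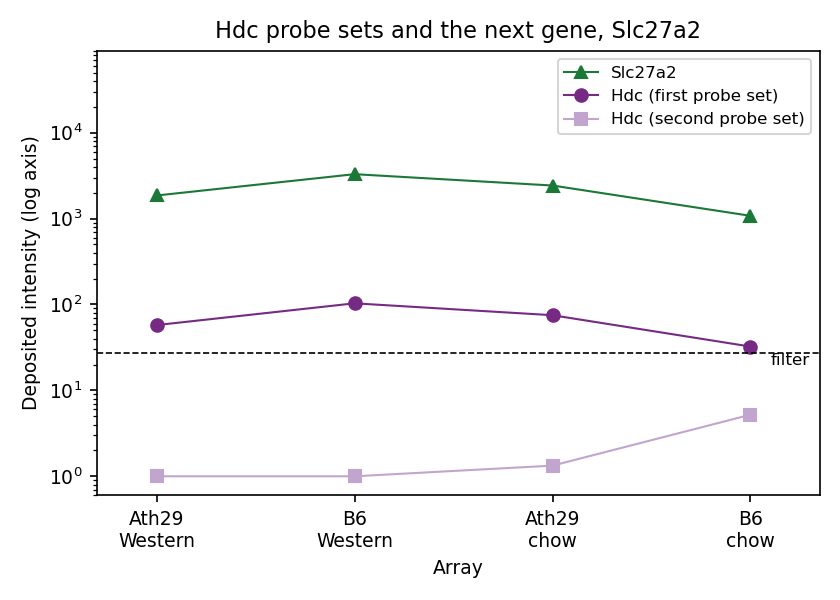
Deposited intensity (log axis) of both Hdc probe sets and of the adjacent gene Slc27a2 on the 4 arrays, with the filter dashed at 27.4; lines join the arrays for reading only. The first Hdc probe set runs parallel to Slc27a2 (57.6, 103.2, 75.04 and 32.4 against 1858, 3290, 2427 and 1077), and the second stays at or below 5.21.

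Because Cpa3, Cma1 and Hdc shared their order of arrays, the 250 bases before their starts are shown. They come from RefSeq on GRCm38.p6, where 7 of the 9 members matched, and are written 5′ to 3′ on the strand of the gene. Capitals mark matches, on either strand and without overlap in these windows, to AGATAA or TGATAA of GATA factors, to the E-boxes CATGTG or CACGTG of MITF-type factors, and to TATAAA of the TATA box. The GATA factors and MITF are transcription factors of the mast cell lineage.
Cpa3 (chr3:20242182-20242431, minus strand): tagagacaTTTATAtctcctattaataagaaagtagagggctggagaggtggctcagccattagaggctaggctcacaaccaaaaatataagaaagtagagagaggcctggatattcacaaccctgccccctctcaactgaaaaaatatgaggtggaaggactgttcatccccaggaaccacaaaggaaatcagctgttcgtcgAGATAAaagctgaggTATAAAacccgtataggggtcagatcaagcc
Cma1 (chr14:55944676-55944925, minus strand): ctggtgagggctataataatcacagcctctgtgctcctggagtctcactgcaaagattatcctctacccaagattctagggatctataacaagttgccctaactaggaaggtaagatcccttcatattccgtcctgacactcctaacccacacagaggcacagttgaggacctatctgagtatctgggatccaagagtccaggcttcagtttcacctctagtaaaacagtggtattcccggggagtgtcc
Hdc (chr2:126618679-126618928, minus strand): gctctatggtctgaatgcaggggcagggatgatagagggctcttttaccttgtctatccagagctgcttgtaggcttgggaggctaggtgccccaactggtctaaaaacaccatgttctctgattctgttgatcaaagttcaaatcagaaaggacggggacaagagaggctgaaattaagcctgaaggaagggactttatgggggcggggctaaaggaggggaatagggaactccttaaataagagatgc

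In Cpa3 an AGATAA began 46 bases and a TATAAA 31 bases before the start, and a reverse-strand TATAAA lay 242 bases before it. The Cma1 and Hdc windows held none of the 5 motifs. Of the 7 members with a window, 4 (Cpa3, Mcpt4, Fcer1a and Ms4a2) held AGATAA or TGATAA, as did 16.6% of all 32851 windows, and 1 (Fcer1a) held an E-box of either kind, as did 17.6%. A TATAAA stood in 12.4% of windows. The 3 genes that shared an array order thus had none of these motifs in common, and a match or its absence is a description of the reference sequence.

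The receptor genes gave no reading above 27.4. Kit, the receptor for the growth factor Kitl, read 22.5, 23.4, 17.2 and 19.1 in Ath29 Western, B6 Western, Ath29 chow and B6 chow, and its second probe set 1.47 to 12.6. Fcer1a, the IgE-binding chain, read 12.8, 14.2, 14.7 and 5.03. For Ms4a2, the beta chain that amplifies the signal, the first probe set read 11.0 and 10.9 in Ath29 Western and Ath29 chow against 20.0 and 20.3 in B6 Western and B6 chow. Both B6 readings were above both Ath29 readings, but all lay below the filter, and the second Ms4a2 probe set read 1 to 8.45. No difference is drawn from any of these.

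Counted over the 5 measured members, 3 (Cma1, Cpa3 and Hdc) were at least 2-fold higher on Western diet in B6 mice, against 4.11% of all genes, and 0 were lower, against 1.17%. In Ath29 mice 0 were 2-fold different by diet, where 1.33% of genes were higher and 0.853% lower. On chow 2 members (Tpsab1 and Hdc) were at least 2-fold higher in Ath29 mice, against 2.16% of genes, and 0 were lower, against 1.95%. With the arrays set to a common 75th percentile, 310 genes were 2-fold higher and 170 lower on chow, against 253 and 229 with a common median. On Western diet 1 member (Tpsab1) was at least 2-fold higher in Ath29 mice, against 0.845%, and 1 (Cpa3) lower, against 2.03%. The median log2 difference of the 5 was -0.42 between strains on Western diet and 0.81 on chow, and -0.24 between diets in Ath29 mice and 1.06 in B6 mice. Over all genes the same medians were 0.00, -0.08, 0.04 and -0.06. By sign alone, 1 member was higher in Ath29 mice on Western diet (50.6% of genes) and 5 on chow (41%), and 1 was higher on Western diet in Ath29 mice (56.2%) and 5 in B6 mice (43.4%), of which Tpsab1 compares readings in the range of background. With readings raised to 28.5, Cma1 no longer passed 2-fold and 2 members (Cpa3 and Hdc) were higher on Western diet in B6 mice, against 3.74% of genes. The Hdc calls rest on its first probe set, whose readings resembled Slc27a2, while the second lay below the filter on all arrays. Cpa3 and the first probe sets of Hdc and Tpsb2 were above 27.4 on all 4 arrays. Tpsab1 and Cma1 passed the filter through their high arrays and so had to differ. These counts and medians describe chosen genes and support nothing further. The strain differences on the 2 diets share no array, but each array enters a strain and a diet difference.

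B6 chow had the lowest reading for all 5 measured members, although both B6 readings of Tpsab1 were in the range of background, and for 22.6% of all genes. The full order of arrays seen in Cma1, Cpa3 and Hdc, with B6 chow lowest, then Ath29 Western, Ath29 chow and B6 Western, was shared by 7.52% of genes, and 10.7% had these same lowest and highest arrays. Fat markers had the same order. All 8 brown fat markers were measured, with median log2 intensities of 9.93 in Ath29 Western and 10.75 in B6 Western, then 10.30 in Ath29 chow and 9.37 in B6 chow, and summed intensities of 10588, 17999, 13775 and 8436. White fat markers, of which 5 of 8 were measured, had medians of 11.90, 12.39, 12.20 and 11.62 on those arrays and sums of 22667, 27807, 25094 and 21517. The part of fat in the Cpa3, Cma1 and Hdc differences was not tested.

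Leukocyte signal also differed between arrays. The 5 pan-leukocyte markers, all measured, had median log2 intensities of 6.68 in Ath29 Western and 6.90 in B6 Western, then 6.18 in Ath29 chow and 5.50 in B6 chow, with summed intensities of 2606, 2622, 1817 and 1533. Their highest and lowest arrays were those of Cpa3, but their order differed in placing Ath29 Western above Ath29 chow. For the 9 of 10 macrophage markers measured the medians were 8.08, 8.15, 6.80 and 7.0, and the sums 9296, 9536, 5821 and 4747, on the arrays in that order. Their diet difference had a median of 0.67 in Ath29 mice and 0.87 in B6 mice, where Cpa3 had -0.43 and 1.57. Heart muscle markers, 10 of 11 measured, stood out in B6 Western, with medians of 5.63, 9.31, 6.22 and 6.06 and sums of 712.2, 9711, 792.1 and 1097. Smooth muscle markers, all 10 measured, had medians of 10.24, 10.35, 9.61 and 10.81 and sums of 28406, 27830, 25513 and 31586, so B6 chow was lowest for mast cell genes and highest for smooth muscle in the median and the sum. Basophils share several mast cell genes, but 0 of the 4 basophil markers with a probe set passed the filter, and Mcpt8, a basophil protease, read at most 18.65. No marker value was listed at 0. The part of leukocyte, heart and smooth muscle content in the mast cell gene differences was not tested.

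Of the 14 marker lists with at least 3 measured members, 2 had both Ath29 medians above both B6 medians, as Tpsab1 had its readings. Over single genes this order was seen in 12.6%, and a count of 2 in 14 lists is not read as a result. For melanocytes, which share Kit and Mitf with mast cells, the medians of the 3 of 5 markers measured were 5.65 in Ath29 Western and 5.37 in B6 Western, then 5.70 in Ath29 chow and 5.26 in B6 chow. For the 4 of 8 neutrophil markers measured they were 6.19 and 6.11 on Western diet and 6.14 and 6.05 on chow, Ath29 before B6. Marker by marker, 3 of the 3 melanocyte genes were higher in Ath29 mice on Western diet and 2 on chow. Among them, Tyrp1 had 3 readings below the filter. Of the 4 neutrophil genes, 2 were higher in Ath29 mice on Western diet and 4 on chow. The summed intensities were 220.4 and 145.1 on Western diet and 167.6 and 119.8 on chow for melanocytes, and 417.7 and 356.5 on Western diet and 373.9 and 338.4 on chow for neutrophils. In the other direction, 2 lists (smooth muscle and platelets) had both Ath29 medians below both B6 medians, against 20.4% of single genes. For the 6 of 7 platelet markers measured, the medians were 6.14 and 7.22 on Western diet and 7.01 and 7.96 on chow, and the sums 3785 and 4616 on Western diet and 4284 and 5109 on chow, Ath29 before B6. The smooth muscle sums did not separate the strains. The part of these cell types in the Tpsab1 difference was not tested. The ratio of 3′ to middle signal of the actin control, a measure of RNA integrity and labelling, was 7.62 in Ath29 Western and 5.63 in B6 Western, and 10.2 in Ath29 chow and 5.10 in B6 chow, higher in both Ath29 arrays. For the Gapdh control it was 10.6 and 9.54 on Western diet and 8.87 and 9.23 on chow. On every array both controls read at least 5.10 times higher at the 3′ end than in the middle. The part of RNA integrity in the Tpsab1 difference, and in the low readings of other members, was not tested.

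**Figure D4:**
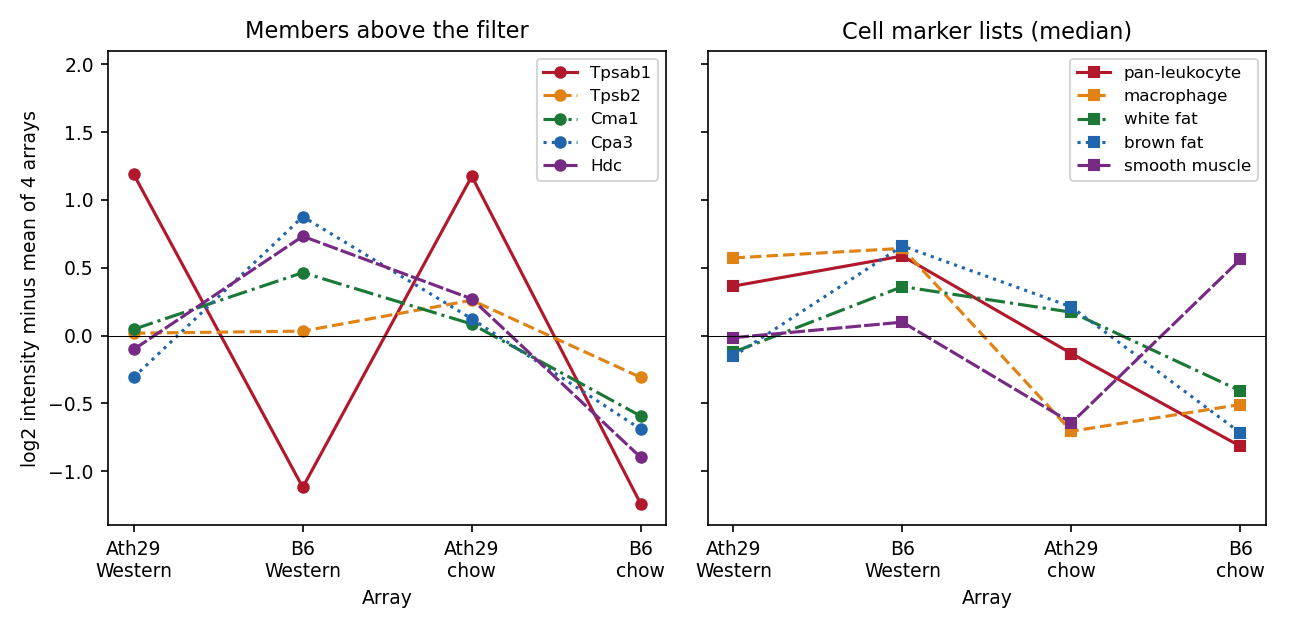
Log2 intensity on each array minus the mean of the 4 arrays for the 5 members above the filter (left) and for the medians of 5 cell marker lists (right); lines join the arrays for reading only. Tpsab1 is high in both Ath29 arrays. Cpa3, Cma1 and Hdc share their highest and lowest arrays with the fat lists and the pan-leukocyte list. The pan-leukocyte and macrophage lists are high on both Western arrays.

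Genes most like each member were sought among the 11713 others by the root mean square difference of centred log2 values over the 4 arrays, for the 4 members whose values spanned at least 1 log2 unit. For Cpa3 the 3 closest were Echs1, a mitochondrial enzyme of fatty acid oxidation, at 0.03, Coq7, of ubiquinone synthesis, at 0.04, and Etfdh, which passes electrons from fatty acid oxidation to ubiquinone, at 0.04. For Hdc they were Slc27a2, Acss1, a mitochondrial acetyl-CoA synthetase, at 0.04, and Perm1, a muscle regulator of mitochondrial genes, at 0.04. For Cma1 they were Abcb6, a porphyrin transporter, at 0.01, Adgrl4, an endothelial adhesion receptor, and Me3, a mitochondrial malic enzyme, both at 0.04. Such matches were common: 141 genes lay within 0.2 of Cpa3, 139 within 0.2 of Hdc and 496 within 0.2 of Cma1. With readings raised to 28.5 the 3 nearest to Cpa3 were the same, Perm1 was no longer among the 3 nearest to Hdc, and all 3 of Cma1 were replaced (by Slco2b1, Stat3 and Abhd5), with 2108 genes within 0.2.

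The genes nearest to Tpsab1 were Plscr2, a phospholipid scramblase, Tmod3, an actin capping protein, and Trappc4, a trafficking protein. Their distances depend on how the B6 background readings of Tpsab1 are treated. As measured they were 0.40, 0.44 and 0.47, and 0 genes lay within 0.2. With all readings raised to at least 28.5 they were 0.16, 0.16 and 0.17, and these 3 were the genes within 0.2. Among the members, Cpa3 and Hdc differed by 0.18 either way. Cma1 differed from Hdc by 0.24 and from Cpa3 by 0.28 as measured, and by 0.39 and 0.36 with readings raised. Tpsab1 differed from the other 4 by 1.05 to 1.38 as measured and by 0.76 to 1.14 with readings raised.

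Around the members, 66 further genes of mast cell biology were listed, of which 57 had a probe set of their own and 30 passed the filter. Between strains, 0 of the 30 were at least 2-fold higher in Ath29 mice and 1 lower on Western diet, against 0.845% and 2.03% of all genes, and on chow 1 was higher and 0 were lower, against 2.16% and 1.95%. Between diets 0 were higher and 2 lower in Ath29 mice, against 1.33% and 0.853%, and 0 and 0 in B6 mice, against 4.11% and 1.17%. These calls were Stat5b and Aoc1. With readings raised to 28.5 the Aoc1 calls were lost and the Stat5b calls were left. Counts this small in 30 genes are not read as a result. The medians of the 30 were -0.01 and -0.05 between strains on Western diet and chow, and 0.08 and -0.02 between diets in Ath29 and B6 mice, close to those of all genes.

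Of the 6 other mast cell and basophil proteases with a probe set, Ctsg alone passed the filter. Mcpt1 and Mcpt2, chymases of mucosal mast cells, read at most 17.4 and 21.1. Of the granule genes, Srgn, the proteoglycan core that binds proteases in mast cells and other leukocytes, read 1607 in Ath29 Western and 2209 in B6 Western, and 1881 in Ath29 chow and 2203 in B6 chow. Ndst2, which sulfates heparin, read 130.8 and 105.6 on Western diet and 123.6 and 122.4 on chow, Ath29 before B6. Slc18a2, which loads histamine into granules, read at most 7.95 and Tph1, which starts serotonin synthesis, at most 9.60. None of the 6 other receptor genes with a probe set passed. Fcer1g, the signalling chain that Fcer1a shares with other Fc receptors, reached 29.9 in B6 Western and was below 27.4 on the other arrays.

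All 8 listed transcription factors passed the filter. Mitf read 1772 in Ath29 Western and 1774 in B6 Western, and 1469 in Ath29 chow and 1647 in B6 chow. Gata2 read 89.3 and 87.9 on Western diet and 112.4 and 115.8 on chow, and Gata1 43.96 and 49.8 on Western diet and 56.9 and 48.8 on chow, Ath29 before B6 each time. These genes are active in other cells of the wall as well, and none of the 3 differed by 2-fold in any comparison. All-gene shares were between 0.845% and 4.11% by comparison and direction, so this is not read as a result. Stat5b, which acts below Kit, was 1.32 higher on chow in Ath29 mice and had a diet difference of -1.02 in them, but its second probe set gave -0.52 and 0.48.

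Among ligands, Kitl read 471 in Ath29 Western and 645 in B6 Western, and 348.7 in Ath29 chow and 456.9 in B6 chow, a strain difference of -0.45 on Western diet and -0.43 on chow. Its other probe sets above the filter gave -0.49 and 0.76 on Western diet and chow for one, and -0.76 and -0.12 for the other. The direction on chow thus differed between Kitl probe sets, and on Western diet all 3 were lower in Ath29 mice by less than 2-fold. Il33, an alarm cytokine that activates mast cells, read 696 and 717 on Western diet against 425 and 426 on chow, in Ath29 and B6 mice in that order. Its diet difference was 0.72 in Ath29 mice and 0.71 in B6 mice, and its strain difference -0.04 and -0.05 on Western diet and chow. The mast cell cytokines Il3, Il4, Il9 and Il13 stayed below the filter.

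Histamine breakdown and receptor genes were measured for 4 of 6. Hnmt, which methylates histamine, read 274 in Ath29 Western against 498 in B6 Western, and 331 in Ath29 chow against 320 in B6 chow, with a strain difference of -0.85 on Western diet and 0.00 on chow. Aoc1, diamine oxidase, read 10.6 in Ath29 Western and 26.2 in B6 Western, both in the range of background, against 43.0 in Ath29 chow and 48.35 in B6 chow. No strain difference is drawn on Western diet for that reason. With readings raised to 28.5, its diet difference was -0.58 in Ath29 mice and -0.79 in B6 mice, the smallest sizes these readings allow. The 7 measured genes of IgE receptor signalling, among them Syk and Btk, held 0 that were 2-fold different in any comparison, and the same count was 0 for the 4 measured eicosanoid genes and for the vasoconstrictor Edn1, a chymase substrate. With all-gene shares between 0.845% and 4.11%, counts of 0 in lists this short are not read as a result. Syk, the kinase recruited by the IgE receptor, read 63.35 and 67.9 on Western diet and 58.6 and 47.2 on chow, Ath29 before B6. Of the 9 further probe sets above the filter of these related genes, 1 was 2-fold different in any comparison. The share over all probe sets is not given here, so this count is not read as a result. The 1 probe set belongs to Ptgs2, the inducible prostaglandin synthase. It read 71.25 in Ath29 Western and 81.65 in B6 Western, and 7.53 in Ath29 chow and 71.6 in B6 chow. Its Ath29 chow reading was in the range of background, while the first Ptgs2 probe set read 51.8 and 70.7 on Western diet and 71.8 and 51.05 on chow, so the pair disagree.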

How the data were processed

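Per the labels, biotin-labelled cRNA was made from 8 ug of total RNA and hybridised to Affymetrix arrays, 1 per group. The deposited values are linear intensities (0.57 to 13421), 1 table for all arrays, made by the authors. How probes were summarised and arrays scaled is not given in the sources used here. The number of arrays limits the precision: no error or test is given.

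Probe sets were named through GEO's platform annotation. Of 45101, 64 are controls, 34945 of the rest have 1 gene symbol, 932 several and 9160 none, and 34741 single symbols were found in the RefSeq table (GRCm38.p6) by gene identifier. In Python 3.11.15 (numpy 2.4.6, pandas 2.3.3), intensities were taken to log2, arrays shifted to a common median (factors 0.990 to 1.02), values below the 25th percentile (9.59) raised to it, and probe sets with a mean above the median (27.4) kept. The brightest probe set stood for each gene (11718 genes), and 2-fold was counted as different. The steps were tested on simulated data in which changes were placed only in bright probe sets. Recovery at the intensities of the members was not tested.

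Members, lists and comparisons were chosen with earlier results of these data known. Named were all members, list genes above the filter, and the 3 nearest genes of each member spanning at least 1 log2 unit. Eif2s3y, Uty, Slc27a2 as neighbour, Fcer1g, Slco2b1, Stat3, Abhd5 and listed genes below the filter were named after their values were seen. Alternatives changed normalization, filter, floor, probe set choice and fold threshold. A floor at the 50th percentile was added after seeing the data.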

Additional observations from a re-analysis of the deposited data

Results flagged for a closer look

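Of the 5 mast cell genes above the filter, 4 had strain differences of opposite sign on the 2 diets: positive on chow, where Ath29 mice were higher, and negative on Western diet. The difference on chow minus that on Western diet was 2.00 log2 units for Cpa3, 2.00 for Hdc (first probe set), 1.10 for Cma1 and 0.58 for Tpsb2. The B6 chow reading of Cma1 is in the range of background, and with readings raised to 28.5 its value was 0.68, which is a lower bound. Each rests on 1 array per group, and the difference was not tested. For Tpsb2 the Western diet value is -0.02, so its sign carries little. The same pair of signs was present in 22.5% of all genes. For Tpsab1 the 2 strain differences had the same sign.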

How the results depend on the processing

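No paired analysis was possible because each group has 1 array. For the same reason no array could be left out. Under quantile normalization, unshifted arrays, arrays aligned at the 75th percentile, the mean over a gene's probe sets, or a floor moved to the 40th percentile or to 1, member medians stayed within 0.25 log2 units and counts of 2-fold genes within 1.5 times. Tpsab1 ran from 1.76 to 2.48 between strains on chow and from 1.78 to 2.33 on Western diet, and Cpa3 from 1.56 to 1.61 between diets in B6 mice. The lowest Tpsab1 values came from a floor at the 50th percentile, chosen after seeing the data, where Tpsab1 was 1.76 and 1.78, and Cma1 was 0.26 between strains on chow and 0.64 between diets in B6 mice, which set the member median there to 0.64 and left 2 members in place of 3 at 2-fold. The Tpsb2 strain difference on Western diet ran from -0.03 to 0.00, and the Tpsab1 diet difference in Ath29 mice from -0.04 to 0.01, so neither has a settled sign.

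Counts of 2-fold genes for strain on chow, strain on Western diet, diet in Ath29 and diet in B6 mice were 482, 337, 256 and 619. With no filter they were 959, 826, 733 and 1075, and with the filter at the 75th percentile, which left no member, 180, 126, 57 and 297. At 1.5-fold they were 1981, 1581, 1217 and 2002, and at 3-fold 79, 67, 47 and 168. These shifts follow from more or fewer genes tested or from the threshold itself. With a common 75th percentile the split on chow was 310 higher and 170 lower, against 253 and 229. With no filter all 9 members entered, with medians of -0.14 between strains on Western diet and 0.34 between diets in B6 mice. Without _s_at, _x_at and _a_at probe sets Cpa3 alone was left, with -1.18 and 1.57, so the other 4 measured members rest on such probe sets.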
